A study of Mus musculus with 27 samples.

Results

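The levels of mature microRNAs (miRNAs) were compared between ischemic mouse cortex 24 h after a transient occlusion of the middle cerebral artery and cortex of sham-operated mice. The study profiled small RNAs after middle cerebral artery occlusion (MCAO), a stroke model in which a nylon filament blocks the artery that feeds much of the lateral cortex, here for 35 min before blood flow was restored. Cortex of the occluded side (ipsilateral) or of the other side (contralateral) was collected at 3, 6, 12 or 24 h, in 3 libraries per group. The comparison takes 6 of the 27 libraries, chosen by their labels: the 3 of ipsilateral cortex at 24 h, written ipsi_24h, and the 3 of sham cortex. The ipsi_24h mice were wild-type C57BL6, an inbred strain without a transgene here, aged 7 to 8 weeks, with 35 min of MCAO and 24 h of recovery. The sham mice were wild-type C57BL6 of the same age that were anesthetized alike and had their arteries exposed, but no filament was inserted. No recovery time is given for sham in the sources used here, nor is the number of mice behind 1 library. Contralateral cortex at 24 h (contra_24h) and ipsilateral cortex at 12 h (ipsi_12h) came from mice of the same strain, age and occlusion time. Whether an ipsilateral and a contralateral library came from the same mouse is not stated in those sources. All 1842 miRNA entries of the authors' count table were considered, and 1470 of them had counts high enough to test.

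MiRNAs are short RNAs that guide Argonaute proteins to messenger RNAs, mostly by pairing of the seed near their 5′ end, and lower the stability or translation of those targets. Most are cut from a hairpin precursor whose 2 arms, 5p and 3p, can each give a mature miRNA, one of them usually far more abundant than the other. In cortex, let-7, miR-9, miR-124, miR-128 and miR-181 are known as abundant species of neurons or of neural tissue in general, while miR-21, miR-155 and miR-146 are known for responding to injury and inflammation.

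Total counts were 1022199, 1223580 and 1039899 in the ipsi_24h libraries and 1125050, 1358956 and 954337 in the sham libraries, within a range of 856591 to 1903416 over all 27. The tissue label was checked against 14 neuron-enriched miRNAs, all present in every library compared: their summed level was 71431, 106169 and 83535 CPM in ipsi_24h and 102003, 165007 and 156207 CPM in sham. CPM (counts-per-million) are counts scaled by the library total and a TMM (trimmed mean of M-values) factor. Sham replicate 2 stood apart in miRNAs of epithelial and sensory cells, which summed to 29721 CPM there and to 479 and 441 CPM in sham replicates 1 and 3. Those calls are therefore given with and without that library. The ipsi_24h libraries also differed among themselves, since replicate 1 was highest in 165 of the 166 entries that rose and lowest in 13 of the 20 that fell. Among the 1284 entries not called, it was highest in 588 and lowest in 420. Replicates are separate sets of animals from different days of surgery, according to the design text.

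The mature sequences of the entries with the largest rise at 24 h are shown to let their base composition and seeds be seen. They are from RefSeq (mouse build GRCm38.p6), written 5′ to 3′, with the seed (bases 2 to 8) in capitals. They are given in order of the size of the rise.
miR-701-5p: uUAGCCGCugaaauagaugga
miR-7687-3p: cCACUCAGucgccccgccaca
miR-718: cUUCCGCCcggccgggugucg
miR-6968-5p: aGGGGGCGagggggcccugugg
miR-2861: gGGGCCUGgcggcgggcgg
miR-6538: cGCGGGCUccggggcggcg
miR-6240: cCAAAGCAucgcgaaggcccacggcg
miR-5131: cGGCGCCCcacggagccccgagc
miR-3109-5p: aAUGGAUGcgaugguucccaugcu
miR-5627-3p: aCAGGGCUcuccggcgccccucgu
miR-6937-5p: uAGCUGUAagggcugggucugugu
miR-3620-3p: cUGCUCAGccccgcccacccca

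The 12 seeds differ from one another, and several of the sequences consist mostly of G and C. miR-1893, miR-7040-5p and miR-3960 also belong to the 15 entries with the largest rise. Shown the same way are the entries that fell and held without sham replicate 2, and the let-7 and miR-30 members among the falls.
miR-222-3p: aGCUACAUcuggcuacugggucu
miR-485-3p: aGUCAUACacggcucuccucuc
let-7f-5p: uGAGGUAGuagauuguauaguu
let-7e-5p: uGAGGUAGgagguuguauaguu
let-7d-5p: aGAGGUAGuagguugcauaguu
miR-30c-5p: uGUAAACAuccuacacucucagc

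The 3 let-7 members share the seed GAGGUAG, and let-7f-5p differs from let-7e-5p at 2 of 22 bases and from let-7d-5p at 3 of 22. Reads of such close family members can be assigned to one another, and the authors' handling of them is not stated in the labels, which leaves the split between single members uncertain.

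Ischemic cortex at 24 h differed from sham mainly by rises. Of the 1470 entries tested, 166 (11.3%) were higher and 20 (1.36%) were lower in ipsi_24h at an adjusted p under 0.05 (edgeR's quasi-likelihood F test with Benjamini-Hochberg adjustment), 186 (12.7%) in all, and 354 had an unadjusted p under 0.05. All 3 ipsi_24h libraries lay above all 3 sham libraries in 254 entries (17.3%) and below them in 171 (11.6%). With the day of surgery as a block in the fit, 207 rose and 69 fell, and the 69 included 16 of the 20. Without sham replicate 2, 119 rose and 2 fell. Without ipsi_24h replicate 2, 171 rose and 11 fell. Leaving out ipsi_24h replicate 1 gave 91 higher and 1 lower, all 91 of them among the 166, and the 1 outside the 20. In such tissue samples, fewer cells of a type and less RNA per cell cannot be told apart.

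**Figure D1:**
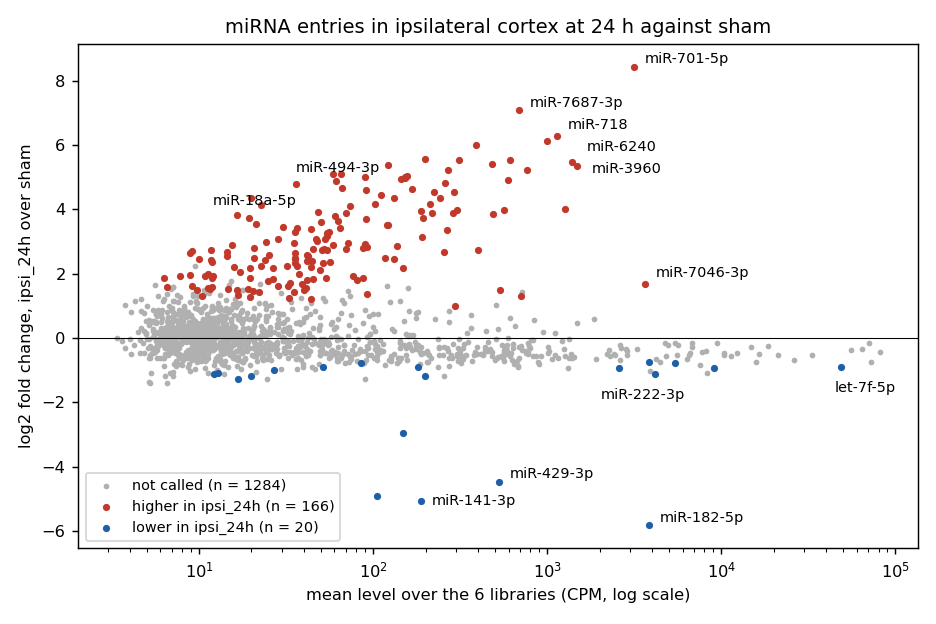
Log2 fold change of ipsi_24h over sham (vertical axis) against the mean level over the 6 libraries in CPM (horizontal log axis), 1 point per tested entry. Red points are the 166 entries higher in ipsi_24h, blue points the 20 lower and grey points those not called; the rises reach 8.43 on the log2 scale, at miR-701-5p.

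The largest rise was that of miR-701-5p, whose hairpin lies in an intron of Ttc28 (mature RNA at chr5:111004170-111004190, plus strand). It had 12613, 4285 and 1883 CPM in ipsi_24h, against 13.0, 19.2 and 22.2 CPM in sham. The groups lay far apart, with ipsi_24h replicate 1 well above the other 2. The log2 fold change was 8.43 ± 0.90 (SE; edgeR, adjusted p = 1.77e-06). Leaving out ipsi_24h replicate 1 gave a log2 fold change of 7.42. miR-7687-3p had 2985, 691 and 431 CPM in ipsi_24h, against 11.3, 10.5 and 8.08 CPM in sham, a change of 7.08 ± 1.00 on the log2 scale (adjusted p = 4.30e-05 by edgeR).

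Some of the largest rises lie in exons of protein-coding genes. miR-718 (chrX:74023857-74023877, minus strand) overlaps an exon of Irak1, a kinase of interleukin-1 and Toll-like receptor signalling. It had 3959, 2202 and 562 CPM in ipsi_24h and 35.7, 20.1 and 30.3 CPM in sham, with a change of 6.28 ± 0.84 on the log2 scale (edgeR, adjusted p = 2.74e-05). The lowest ipsi_24h library was still more than 10 times the highest sham library. miR-2861 (chr2:32712819-32712837, minus strand) overlaps an exon of Cdk9, the kinase of the transcription elongation factor P-TEFb, and is known in mouse osteoblast differentiation together with miR-3960 of the same locus. miR-2861 had 1016, 499 and 311 CPM in ipsi_24h and 11.3, 6.12 and 22.2 CPM in sham. miR-3960 had 5799, 2043 and 877 CPM in ipsi_24h and 92.4, 54.2 and 64.7 CPM in sham. Both Cdk9 locus entries tested thus rose, by 5.53 ± 0.82 for miR-2861 and 5.36 ± 0.76 for miR-3960 on the log2 scale (adjusted p = 4.30e-05 for each by edgeR). miR-5131 (chr14:45657972-45657994, minus strand), in an exon of Ddhd1, which codes for a phospholipase, had 2151, 531 and 130 CPM in ipsi_24h and 35.7, 10.5 and 19.2 CPM in sham.

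Others of the 15 lie in introns. miR-6968-5p (chr17:26935472-26935493, plus strand) is in an intron of Phf1, which codes for a Polycomb-associated protein. It had 1312, 679 and 326 CPM in ipsi_24h, against 9.73, 14.0 and 12.1 CPM in sham. miR-6538 (chr12:26414970-26414988, minus strand) is in an intron of Rnf144a, and had 2278, 932 and 379 CPM in ipsi_24h, against 35.7, 15.7 and 26.3 CPM in sham. For both, each ipsi_24h library was more than 10 times every sham library. miR-3109-5p (chr9:69456958-69456981, plus strand), in an intron of Anxa2, which codes for the calcium-dependent membrane-binding protein annexin A2, had 436, 193 and 89.6 CPM in ipsi_24h and 7.29, 4.37 and 5.05 CPM in sham. miR-6240 (chr5:114851973-114851998, plus strand) lies outside the protein-coding and long noncoding RNA genes compared, and had 4545, 1977 and 1606 CPM in ipsi_24h and 53.5, 48.9 and 81.8 CPM in sham. Whether its sequence also matches ribosomal RNA, so that such fragments could be counted under its name, was not tested. The groups did not overlap in any of the 15 entries, and their log2 fold changes were between 5.10 (miR-3620-3p) and 8.43 (miR-701-5p), with adjusted p between 1.77e-06 and 0.000133 (edgeR). All 15 were also called higher under each alternative scaling, filter, test and left-out library tried.

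**Figure D2:**
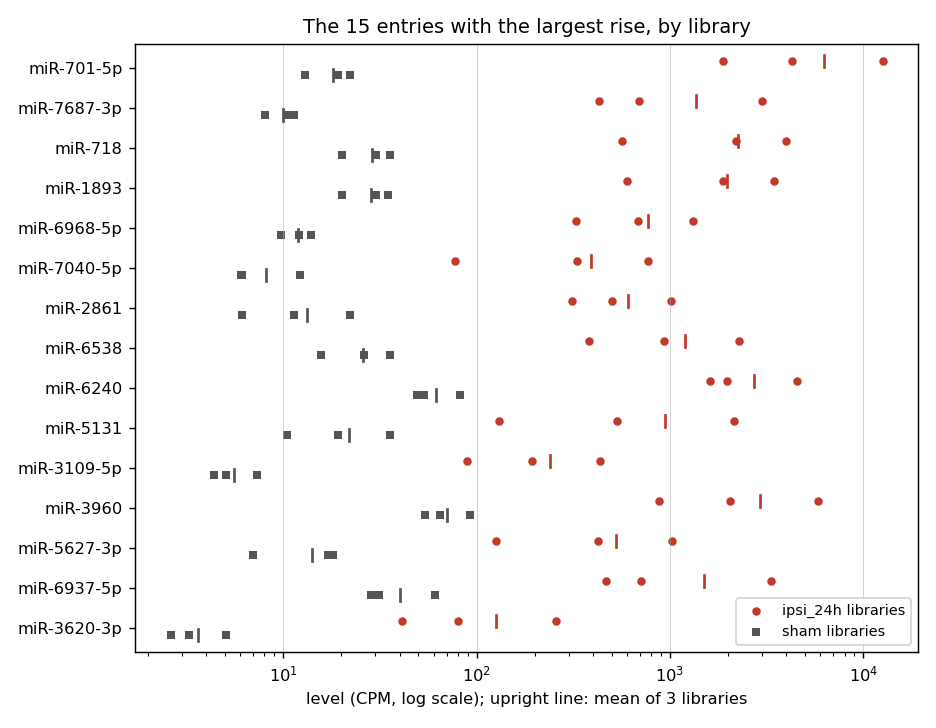
Level in CPM (horizontal log axis) of the 15 entries with the largest rise, 1 row each, with red circles for the 3 ipsi_24h libraries above grey squares for the 3 sham libraries and an upright line at each mean. The ipsi_24h libraries lie to the right of the sham libraries in every row.

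As a group, the 166 entries were of low abundance in sham cortex, as were most tested entries. The 1284 entries not called had a median of 14.5 CPM in sham, and 771 of them averaged under 20 CPM there. The median level of the 166 was 85.6 CPM in ipsi_24h and 11.2 CPM in sham, and 124 of them averaged under 20 CPM in sham. The median log2 fold change was 2.76, and 154 of the 166 had ipsi_24h and sham libraries that did not overlap, beside 17.3% of all tested entries with ipsi_24h above, a count that the selection itself raises. The size of the rise differed strongly between the ipsi_24h libraries: replicate 1 was the highest in 165 of the 166, and replicate 3 was the lowest in 145. Summed over the 166 entries, the level was 101779, 41135 and 20412 CPM in ipsi_24h and 5297, 5710 and 5003 CPM in sham. These sums describe entries that were selected by this same comparison, so their order between ipsi_24h and sham is no further evidence. The most abundant of the 166 in sham, named after its values were seen, was miR-7046-3p, with 10173, 4885 and 1614 CPM in ipsi_24h and 1288, 2514 and 1443 CPM in sham. Its groups overlapped, and its change of 1.67 ± 0.43 on the log2 scale (edgeR, adjusted p = 0.0089) was not called without ipsi_24h replicate 1 (adjusted p = 0.28 by edgeR), sham replicate 1 (0.079) or sham replicate 3 (0.051).

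The same entries were followed through the other groups, whose comparisons share the sham or the ipsi_24h libraries. The median log2 fold change of the 166 over sham was 0.64 in ipsilateral cortex at 3 h, 0.55 at 6 h, 1.84 at 12 h and 2.76 at 24 h, and 0.01 in contra_24h. Their summed level averaged 10236 ± 2071 CPM at 3 h, 9231 ± 1652 CPM at 6 h, 22949 ± 20757 CPM at 12 h and 54442 ± 42284 CPM at 24 h in ipsilateral cortex, and 5349 ± 195 CPM in contra_24h (SD, n = 3 each). The large spread at 12 h came from 1 library: ipsi_12h replicates 1 to 3 had 12838, 9185 and 46824 CPM. miR-701-5p averaged 6261 CPM at 24 h and 1548 CPM at 12 h in ipsilateral cortex and 21.8 CPM in contra_24h. In ipsi_12h against sham, 70 entries (4.76%) were higher and 10 (0.68%) lower, 80 (5.44%) in all, and at 3 and 6 h none was called against sham (0% each, with 86 and 54 entries at an unadjusted p under 0.05 by edgeR).

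**Figure D3:**
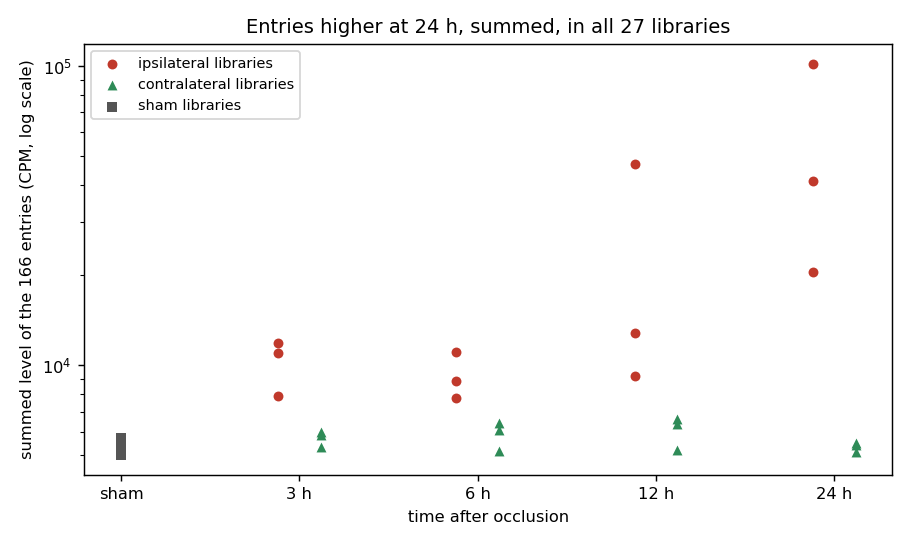
Summed level in CPM (vertical log axis) of the 166 entries higher in ipsi_24h, 1 point per library, for sham and for each time after occlusion in ipsilateral cortex (red circles) and contralateral cortex (green triangles). The 3 ipsi_24h libraries lie at 101779, 41135 and 20412 CPM, and the contralateral libraries between 5134 and 6611 CPM, beside 5003 to 5710 CPM in sham.

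Directly between the hemispheres, ipsi_24h was higher than contra_24h in 174 entries (11.8%) and lower in 21 (1.43%), 195 (13.3%) in all, by the same edgeR test, and 351 had an unadjusted p under 0.05. The day of surgery as a block gave 198 higher and 96 lower entries. Leaving out ipsi_24h replicate 1 gave 104 and 3. The count of lower entries was 4 without contra_24h replicate 1 and 11 without contra_24h replicate 2. contra_24h against sham gave 0 calls by edgeR and 0 by DESeq2, with 33 entries at an unadjusted p under 0.05; leaving out sham replicate 1 gave 1 lower entry. miR-701-5p was 8.17 higher on the log2 scale in ipsi_24h than in contra_24h (edgeR, adjusted p = 2.63e-06), and miR-6968-5p was 6.66 higher (adjusted p = 1.30e-05 by edgeR). ipsi_24h against ipsi_12h gave 0 calls by edgeR, with 252 entries at an unadjusted p under 0.05, and 5 higher and 65 lower entries by DESeq2. Leaving out ipsi_12h replicate 3 turned this into 157 higher and 39 lower entries, and leaving out ipsi_24h replicate 3 into 19 higher and 0 lower.

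Base composition differed between the entries that rose and the rest. Among the entries with a RefSeq sequence, the median GC content of the mature RNA was 63.6% for the 143 that rose, 43.5% for the 19 that fell and 52.2% for the 1128 not called. G alone made up a median of 37.5% of the bases in entries that rose and 26.1% in those not called, and a run of at least 4 G was present in 23.1% and 9.40% of them. The median length was 22 bases in each class. Of the entries with a GC content of at least 70%, 40 of 79 (50.6%) rose and 0 fell, beside 8 of 164 (4.88%) that rose at a GC content under 40%. In between, 6.11% rose at 40 to 50% GC, 7.11% at 50 to 60% and 15.8% at 60 to 70%. GC content does not describe every rise: miR-701-5p has 42.9% GC and miR-6937-5p 54.2%, against 94.7% in miR-2861 and miR-6538.

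The relation to GC content was also seen at a matched level. Among entries with a sham mean under 20 CPM, 62 of 246 (25.2%) rose at a GC content of at least 60%, and 48 of 541 (8.87%) below it. Between 20 and 100 CPM it was 18 of 68 (26.5%) and 10 of 204 (4.90%), and at 100 CPM or more 3 of 37 (8.11%) and 2 of 194 (1.03%). Within hairpins the relation was less clear. Where 1 arm rose and both arms had a sequence, the risen arm had more GC in 36 of 63 hairpins. The 79 entries of at least 70% GC summed to 35261, 14437 and 8256 CPM in ipsi_24h and to 2815, 1969 and 2598 CPM in sham. Every ipsi_24h library was above every sham library, and contra_24h, with 2502, 2900 and 2204 CPM, lay within the range of sham except for the 2900. Within ipsi_12h, replicate 3 again stood apart, with 17170 CPM against 6181 and 3271 CPM in replicates 1 and 2. These shares describe the entries, and the part of base composition in the rises was not tested.

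**Figure D4:**
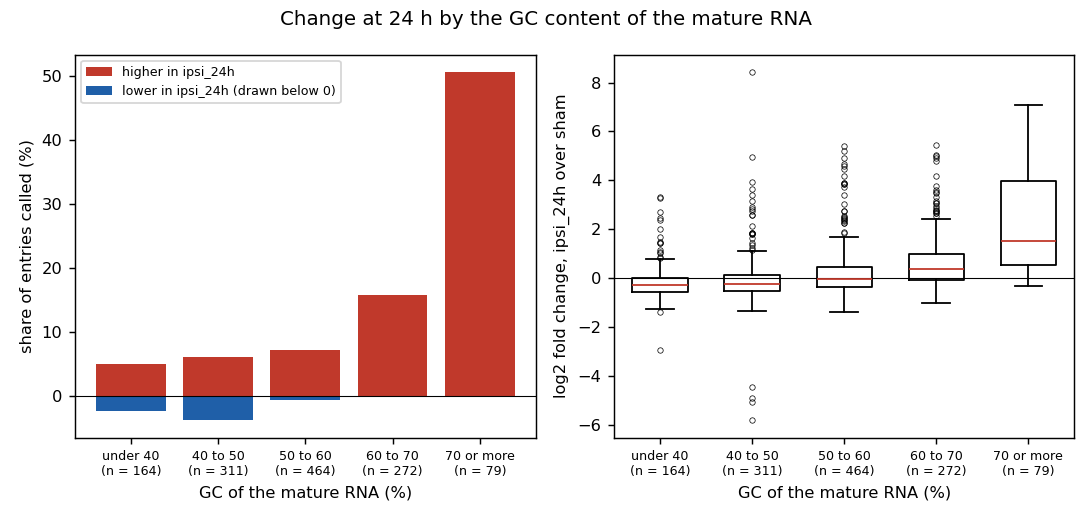
Left, share in % of entries called higher (red bars, upward) or lower (blue bars, drawn below 0) in ipsi_24h, by GC content of the mature RNA. Right, log2 fold change of ipsi_24h over sham for the same classes (box, quartiles with the median in red; whiskers, 1.5 times the box height; circles, entries beyond); the share higher is 50.6% at a GC content of at least 70% and 4.88% under 40%.

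By position, 49 of the 139 risen entries with an annotated hairpin (35.3%) overlapped an exon of another gene and 56 (40.3%) an intron, and 267 (25.3%) and 527 (49.9%) of the 1057 not called did. Seeds were counted for called entries and not for all tested entries, so the counts are not read as a trait of the rises. The 143 sequences of risen entries held 140 seeds, 119 of which had no other tested entry, and 3 seeds were shared by at least 2 entries that rose. One of the 3 is AAGGUGC of miR-18a-5p and miR-18b-5p, members of the miR-17/92 cluster and of its paralog on the X chromosome, which is known for promoting cell proliferation. Their sequences differ at 2 of 23 bases.
miR-18a-5p: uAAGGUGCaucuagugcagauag
miR-18b-5p: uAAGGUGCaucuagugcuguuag

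miR-18a-5p had 182, 79.2 and 10.0 CPM in ipsi_24h and 6.48, 6.99 and 4.04 CPM in sham, and miR-18b-5p had 75.2, 37.5 and 17.8 CPM in ipsi_24h and 4.86, 9.61 and 7.07 CPM in sham. All ipsi_24h libraries were above all sham libraries for both. The log2 fold changes were 3.92 ± 0.87 for miR-18a-5p and 2.59 ± 0.60 for miR-18b-5p (edgeR, adjusted p = 0.0021 and 0.0031), and neither was called without ipsi_24h replicate 1 (adjusted p = 0.060 and 0.068 by edgeR). The other 10 tested members of these clusters were not called: their log2 values lay between -1.06 (miR-19a-3p) and 0.41 (miR-20b-5p), with 0.01 for miR-17-5p, -0.37 for miR-92a-3p and -0.68 for miR-106b-5p. All ipsi_24h libraries were below all sham libraries for miR-19a-3p, whose adjusted p was 0.086 by edgeR and 0.049 with the day of surgery as a block. The median of the 12 was -0.15 with TMM factors and 0.25 with library totals.

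Most hairpins with a risen arm had only 1 such arm. With 12.2% of tested 5p and 6.95% of tested 3p entries higher, unrelated arms would mostly give this too. Both arms were tested for 498 hairpins, and 85 of these had an arm that rose: the 5p arm alone in 48, the 3p arm alone in 31 and both in 6. In 42 of the 79 hairpins with a single risen arm, that arm was the less abundant one in sham, and the median log2 fold change of the opposite arms was -0.02, the same as over all tested entries. miR-7687-3p rose by 7.08 on the log2 scale, against 0.22 ± 0.54 (SE, not called) for miR-7687-5p. miR-6968-5p rose by 6.00, against -0.54 ± 0.89 (not called) for miR-6968-3p. In miR-5627 the 3p arm rose by 5.22 and the 5p arm by 1.92 on the log2 scale (edgeR, adjusted p = 4.30e-05 and 0.015). Among all tested entries, 12.2% of those named 5p rose, 6.95% of those named 3p and 20.5% of the 229 named without an arm.

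The miRNAs of known families moved little beside these. The 283 entries that averaged at least 100 CPM over the 27 libraries had a median log2 fold change of -0.39, with 28 higher and 10 lower, where the median over all tested entries was -0.02. That mean includes the ipsi_24h libraries, so entries scarce in sham, such as miR-701-5p, could pass through their rise there. With a sham mean of at least 100 CPM, 3 of 37 entries with at least 60% GC rose. Of those with less GC, 2 of 194 did. With the day of surgery as a block, 33 of the 283 were higher and 53 lower, so that falls outnumbered rises in that fit. With library totals in place of TMM factors the medians were -0.01 and 0.36, so a fold change of an abundant miRNA depends on the scaling by about 0.38 on the log2 scale. The 10 most abundant tested entries held 52.1% ± 4.67 of the counts in ipsi_24h and 56.2% ± 1.22 in sham (SD, n = 3 each; two-sided exact permutation test, p = 0.2, where 0.1 is the smallest p that 3 against 3 libraries allow). The difference of -4.08 percentage points was -1.40 without ipsi_24h replicate 1, which held 46.8%. At equal depth, 1828 ± 5.19 entries would have a count in ipsi_24h and 1802 ± 15.8 in sham (SD, n = 3 each, p = 0.1 by the same exact test), a difference of 25.4 entries, or 16.4 without sham replicate 2. miR-181a-5p, the most abundant, had 58365, 73908 and 75576 CPM in ipsi_24h and 102672, 106148 and 74616 CPM in sham. Its groups overlapped, and its log2 fold change was -0.45 ± 0.22 (edgeR, adjusted p = 0.20).

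Of the let-7 family, whose members are known to restrain growth-promoting genes and to mark differentiated tissue, 3 of 10 tested members fell, beside 1.36% of all tested entries, and none rose. The median log2 fold change was -0.60 with TMM factors and -0.22 with library totals, where no member was called. let-7f-5p had 25995, 44323 and 32023 CPM in ipsi_24h, against 66440, 73603 and 51296 CPM in sham. let-7e-5p had 3457, 4676 and 3856 CPM in ipsi_24h, against 8051, 7099 and 5521 CPM in sham. let-7d-5p had 2726, 2576 and 3395 CPM in ipsi_24h, against 5469, 4790 and 4221 CPM in sham. The groups did not overlap for any of the 3. The log2 fold changes were -0.90 ± 0.24 for let-7f-5p, -0.79 ± 0.22 for let-7e-5p and -0.74 ± 0.23 for let-7d-5p (edgeR, adjusted p = 0.011, 0.015 and 0.031). With the day of surgery as a block 6 of the 10 fell, and without sham replicate 2 or ipsi_24h replicate 1 none was called.

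Of the miR-30 family, 1 of 5 tested members fell, beside 1.36% of all tested entries. It was miR-30c-5p, with 4449, 6188 and 8196 CPM in ipsi_24h and 12964, 10838 and 12034 CPM in sham, and no overlap. Its log2 fold change was -0.93 ± 0.29 (edgeR, adjusted p = 0.031), the family's median was -0.61, with -0.27 under library totals, and 4 of the 5 fell in the fit with the day of surgery as a block. The call of miR-30c-5p was lost without ipsi_24h replicate 1 or 2 or any 1 of the sham libraries (adjusted p = 0.062 to 0.23 by edgeR). None of the 4 miR-181 members was called (median log2 fold change -0.51, and -0.15 with library totals; 3 with an unadjusted p under 0.05, 0 by DESeq2), and none of the 3 miR-29 members (median -0.53, and -0.15 with library totals; 0 with an unadjusted p under 0.05, 0 by DESeq2). In the blocked fit 1 member of each of the 2 families fell. The neuron-enriched miRNAs gave 0 calls of 14 by edgeR, beside 12.7% of all tested entries, and 0 by DESeq2, with 3 at an unadjusted p under 0.05. All 14 log2 fold changes were under 0 with TMM factors, with a median of -0.57, and the median was -0.19 with library totals. In the blocked fit 6 of the 14 fell. miR-124-3p, the classical neuronal miRNA, had 3203, 4296 and 6039 CPM in ipsi_24h and 3429, 6073 and 5487 CPM in sham. These values overlapped, and the log2 fold change was -0.15 ± 0.41 with TMM factors and 0.24 with library totals (edgeR, adjusted p = 0.87 and 0.72). miR-9-5p, an abundant regulator of neural development, had 15947, 25126 and 19310 CPM in ipsi_24h and 26687, 39886 and 30823 CPM in sham. Its groups did not overlap, yet its log2 fold change of -0.69 ± 0.26 was not called (edgeR, adjusted p = 0.095, and 0.0079 with the day of surgery as a block).

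Among miRNAs known to respond to injury or inflammation, 1 of 9 tested members was lower and none was higher. Over all tested entries 1.36% were lower and 11.3% higher. The median log2 fold change of the 9 was -0.03 under TMM factors and 0.36 under library totals. The lower member was miR-222-3p, which is known to repress the cell cycle inhibitor p27. It had 1730, 3288 and 2832 CPM in ipsi_24h, against 5152, 6243 and 5692 CPM in sham, without overlap, and a change of -1.12 ± 0.29 on the log2 scale (edgeR, adjusted p = 0.0087). It was one of the 2 falls still called without sham replicate 2 (adjusted p = 0.045 by edgeR), and was not called without ipsi_24h replicate 1 (adjusted p = 0.11 by edgeR). miR-221-3p, which is on the same list and has the same seed, did not fall with it. Its groups overlapped, and its log2 fold change was -0.03 ± 0.30 (edgeR, adjusted p = 0.97). miR-21a-5p, a widely used marker of tissue injury, had 2862, 2526 and 1351 CPM in ipsi_24h and 1478, 1664 and 1278 CPM in sham. The third ipsi_24h library lay within the sham range, and the log2 fold change was 0.61 ± 0.27 (edgeR, adjusted p = 0.16). The call depended on the fit, with adjusted p = 0.047 in edgeR with the day of surgery as a block and 0.0038 with library totals. miR-155-5p, a miRNA of activated immune cells, had 18.4, 9.73 and 11.6 CPM in ipsi_24h, against 5.67, 6.12 and 6.06 CPM in sham. All ipsi_24h libraries were higher, and the log2 fold change of 1.15 ± 0.40 had an adjusted p of 0.062 by edgeR, and of 0.033 with the day of surgery as a block.

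The Dlk1-Dio3 imprinted cluster on chromosome 12, the largest miRNA cluster expressed in brain, had 3 higher and 1 lower among the 48 listed arms tested, with a median log2 fold change of -0.37 with TMM factors and 0.01 with library totals. Over all tested entries 11.3% were higher and 1.36% lower. In the fit with the day of surgery as a block, 4 of the 48 were higher and 6 lower. The list does not hold every arm of the cluster: outside it, and named after their values were seen, the 5p arms of miR-341 (4.53 on the log2 scale), miR-300 (1.44) and miR-410 (1.83) also rose (edgeR, adjusted p = 0.00015, 0.0085 and 0.038). miR-494-3p (chr12:109715367-109715388, plus strand) had 542, 243 and 51.0 CPM in ipsi_24h, against 10.5, 6.12 and 10.1 CPM in sham. The groups were far apart, with a change of 4.95 ± 0.72 on the log2 scale (edgeR, adjusted p = 4.30e-05). miR-370-3p rose by 1.01 ± 0.32 and miR-665-3p by 1.36 ± 0.44 (edgeR, adjusted p = 0.038 and 0.037), and both calls were lost without ipsi_24h replicate 1 (adjusted p = 0.44 and 0.45 by edgeR) and without any 1 of the sham libraries (0.11 to 0.13 for miR-370-3p and 0.057 to 0.20 for miR-665-3p). miR-485-3p, from the same cluster, fell: it had 80.6, 144 and 137 CPM in ipsi_24h and 275, 278 and 274 CPM in sham. Its groups did not overlap, and the log2 fold change was -1.19 ± 0.32 (edgeR, adjusted p = 0.0097, 0.037 without sham replicate 2 and 0.11 without ipsi_24h replicate 1).

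The 5 largest falls depended on sham replicate 2. They were miR-182-5p, miR-141-3p, miR-200a-3p, miR-429-3p and miR-200b-3p, which are known from epithelia and sensory cells, and their log2 fold changes were between -5.82 and -2.94. miR-182-5p had 171, 82.0 and 148 CPM in ipsi_24h and 143, 22414 and 87.9 CPM in sham. miR-429-3p had 34.2, 72.3 and 30.1 CPM in ipsi_24h and 57.5, 2884 and 82.8 CPM in sham. Without sham replicate 2 the adjusted p of the 5 were between 0.71 and 0.96 (edgeR), and the log2 fold change of miR-182-5p was 0.21. All 5 calls were also lost without ipsi_24h replicate 1 or 3 (0.055 to 0.19), and those of miR-182-5p, miR-200a-3p and miR-200b-3p without replicate 2 (0.062 to 0.13). miR-183-5p, the other tested member of that group of 6, had 702, 356 and 345 CPM in ipsi_24h and 195, 2093 and 186 CPM in sham, and was not called (edgeR, adjusted p = 0.53). Without sham replicate 2 its log2 fold change was 1.29 (edgeR, adjusted p = 0.27). The opposite arm, miR-183-3p, is outside the list and was named after its values were seen. It averaged 80.9 CPM in ipsi_24h and 7.63 CPM in sham, and rose by 3.38 ± 0.83 on the log2 scale (edgeR, adjusted p = 0.0054).

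The log2 fold changes of the other 15 lay between -1.27 (miR-100-3p) and -0.74 (let-7d-5p). miR-328-3p had 1172, 2023 and 2152 CPM in ipsi_24h and 3292, 3500 and 3344 CPM in sham. miR-144-3p, an erythroid miRNA, had 11.6, 12.5 and 12.4 CPM in ipsi_24h, against 19.5, 34.9 and 28.3 CPM in sham. It was the only erythrocyte marker of 3 tested to be called, while miR-451a, another erythroid miRNA, stood at -0.43 on the log2 scale (edgeR, adjusted p = 0.56). miR-144-5p, the other arm of the miR-144 hairpin, stood at 0.04, and its groups overlapped (edgeR, adjusted p = 0.97). The median of the 3 was -0.43 with TMM factors and -0.05 with library totals. miR-100-3p, let-7c-1-3p, miR-455-5p, miR-6371, miR-130b-5p, miR-342-5p and miR-1843a-3p made up the rest, at means of 7.62 to 127 CPM in ipsi_24h and 16.9 to 236 CPM in sham. In all 15, each ipsi_24h library was below each sham library. Without ipsi_24h replicate 1 none of the 20 falls was called. Leaving out single other libraries left 2 (sham replicate 2) to 14 (sham replicate 3) of the 20.

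**Figure D5:**
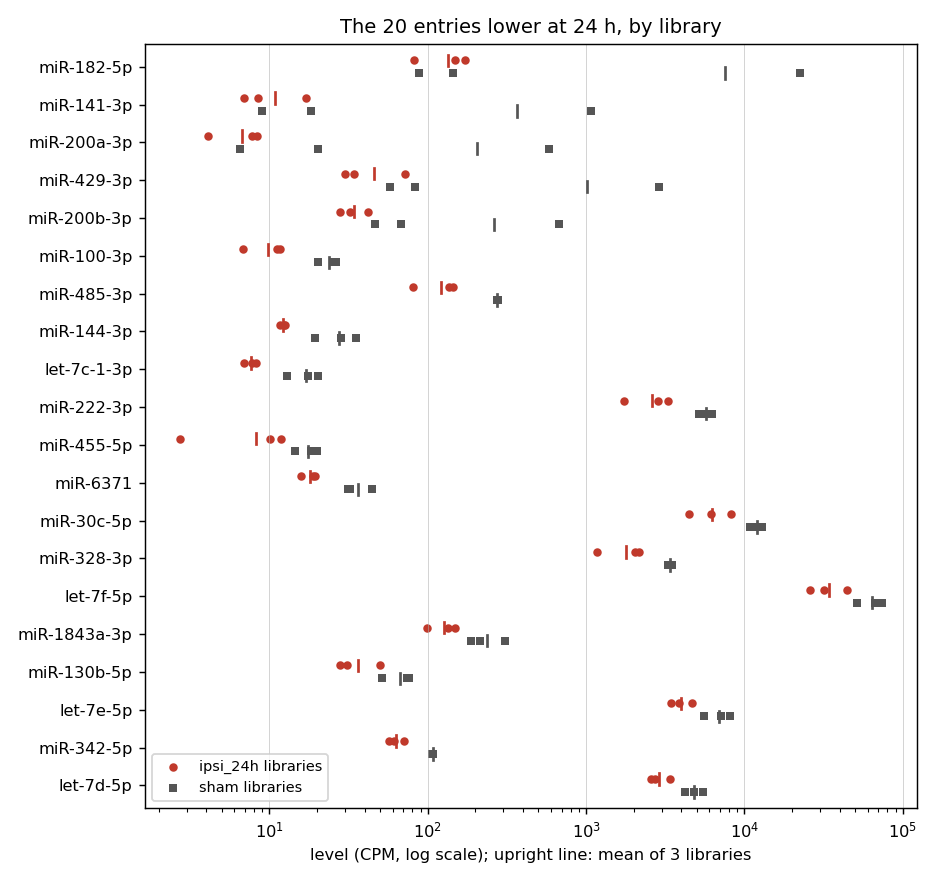
Level in CPM (horizontal log axis) of the 20 entries lower in ipsi_24h, 1 row each, with red circles for the 3 ipsi_24h libraries above grey squares for the 3 sham libraries and an upright line at each mean. In the top 5 rows 1 sham library lies far to the right of all others, and in the 15 rows below them the ipsi_24h libraries lie to the left of the sham libraries.

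The other lists of miRNAs known from non-neuronal cells are given next. Over all tested entries, 11.3% were higher and 1.36% lower. Of the 2 choroid plexus miRNAs, miR-211-5p rose, with 83.4, 36.8 and 18.5 CPM in ipsi_24h and 21.1, 19.2 and 18.2 CPM in sham, and a change of 1.24 ± 0.42 on the log2 scale (edgeR, adjusted p = 0.0495). The groups overlapped, and the call was lost without ipsi_24h replicate 1 (adjusted p = 0.65 by edgeR) and without sham replicate 1, 2 or 3 (0.12, 0.16 and 0.14). Its near-identical relative miR-204-5p, which differs from it at 1 of 22 bases and can share reads with it, had 2729, 2403 and 2218 CPM in ipsi_24h and 3011, 3331 and 2121 CPM in sham (edgeR, adjusted p = 0.77).
miR-211-5p: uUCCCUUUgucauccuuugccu
miR-204-5p: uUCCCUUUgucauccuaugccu

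Leukocyte and microglial miRNAs gave 0 calls of 7 tested by edgeR, beside 12.7% of all tested entries, and 0 by DESeq2, with 2 at an unadjusted p under 0.05. They summed to 1280, 1605 and 1966 CPM in ipsi_24h and 2406, 2143 and 2111 CPM in sham. miR-155-5p, described above, is also on this list, and was its 1 higher call with the day of surgery as a block (edgeR, adjusted p = 0.033) and with library totals (0.027). Vascular (3 tested), oligodendrocyte-enriched (3), muscle (1) and meningeal and fibroblast (5) markers gave 0 calls by edgeR and 0 by DESeq2, with unadjusted p under 0.05 for 1 oligodendrocyte marker and for none of the others. With the day of surgery as a block, 1 vascular marker fell, miR-126a-3p of endothelial cells (edgeR, adjusted p = 0.037), and none of the other 3 lists had a call. Likewise, 0 members were called by either tool in the miR-26 (2 tested), miR-15 and miR-16 (6), miR-23, miR-27 and miR-24 (5), miR-99, miR-100 and miR-125 (6), miR-34 (6) and miR-132 and miR-212 (4) groups and in the hypoxia pair of miR-210. Of these, 1 member of the miR-34 group and 1 of the miR-99 group had an unadjusted p under 0.05. With the day of surgery as a block, miR-15b-5p rose, and miR-322-5p, miR-351-5p of the miR-99 group, miR-132-5p and miR-212-3p fell (edgeR, adjusted p = 0.046, 0.030, 0.017, 0.042 and 0.035). The 2 arms of miR-210, a miRNA induced by low oxygen, stood at -0.35 (3p) and 0.29 (5p) on the log2 scale, with adjusted p = 0.60 and 0.75 by edgeR. The median log2 fold changes were -0.31 for miR-26, -0.39 for miR-15 and miR-16, -0.11 for miR-23, miR-27 and miR-24, -0.35 for the miR-99 group, -0.58 for miR-34, -0.49 for miR-132 and miR-212 and -0.03 for miR-210. Among the cell type lists they were -0.30 for leukocytes, -0.60 for vascular, -0.51 for oligodendrocyte, -0.56 for muscle and -0.10 for meningeal markers, beside -0.02 over all tested entries. With library totals the medians of the miR-26, miR-23, miR-99, miR-210, leukocyte and meningeal lists were above 0 (0.07, 0.27, 0.03, 0.36, 0.06 and 0.24), where that of all entries was 0.36.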

How the data were processed

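The authors deposited 1 table of raw counts per mature miRNA entry. The submitters' processing notes list Novoalign and edgeR, with no version or role. For the genome build, the annotation release and multi-mapping reads, nothing is stated in the labels. Per the labels' protocols, Trizol RNA was made into TruSeq small RNA libraries with inserts of 15 to 35 bp. From the counts, TMM-scaled CPM were computed, and edgeR 4.0.16 (R 4.3.3) fitted 1 mean per group to all 27 libraries, with 18 residual degrees of freedom. filterByExpr kept 1470 entries with 99.9% of the counts and removed 372. Adjusted p-values (Benjamini-Hochberg) run over all tested entries, with a threshold of 0.05. The code was tested on simulated data. DESeq2 1.42.0 was an alternative. In the closing section, "abundant entries" average at least 100 CPM.

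The members and lists were chosen with earlier results of these data known. The 24 lists hold 176 miRNAs, 168 in the table and 161 tested. Entries named are up to 15 calls per direction by fold change with a mean of at least 10 CPM, the 10 most abundant, list members, opposite arms and shared seeds. let-7d-5p and let-7e-5p are named as list members, and miR-1843a-3p, miR-130b-5p, miR-342-5p, miR-7046-3p, miR-183-3p and 3 arms of the Dlk1-Dio3 cluster were named after their values were seen.

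RefSeq gave a mature sequence for 1290 of the 1470 tested entries, and GENCODE vM21 (GRCm38) a hairpin locus for 1214. Replicate numbers mark days of surgery, per the design text: deviations from group means correlated at 0.23 over 108 same-numbered pairs, and at 0.29, 0.26 and 0.11 between ipsi_24h and sham. The -0.12 over 216 other pairs largely follows from the 0.23, because deviations cancel out within a group. Every pair of replicates differed beyond sampling noise (chi-square per degree of freedom of at least 11.2). Standard errors are from the edgeR fit and include variation between libraries.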

Additional observations from a re-analysis of the deposited data

Results flagged for a closer look

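Between the hemispheres at 24 h, 195 entries differed in their change from sham (edgeR's contrast of ipsi_24h minus contra_24h, adjusted p under 0.05), 174 of them higher and 21 lower in ipsi_24h. In contra_24h the 166 entries that rose in ipsi_24h had a median log2 fold change over sham of 0.01.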

How the results depend on the processing

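The 15 largest rises kept their call under all alternatives tried, and none of the 15 falls named by size did. For ipsi_24h against sham, leaving out 1 library gave 92 to 212 calls, 91 to 197 higher and 1 to 18 lower: 91 and 1 without ipsi_24h replicate 1, 11 lower without ipsi_24h replicate 2, and 119 and 2 without sham replicate 2. Without sham replicate 2 and ipsi_6h replicate 3, 123 were called, 2 of them lower. The 20 lower entries became 4 with library totals, 10 with TMM factors from abundant entries, 8 without a filter, 69 with the replicate block, 4 in a fit of the 6 libraries and 35 with the block but without sham replicate 2. The 2 alternatives that combine leaving out sham replicate 2 with another change were chosen after seeing the data.

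For ipsi_24h against contra_24h, the replicate block gave 294 calls, 96 of them lower, and leaving out 1 library 107 to 225, with 104 to 202 higher and 3 to 23 lower (107, 104 and 3 without ipsi_24h replicate 1; 4 and 11 lower without contra_24h replicates 1 and 2). The lower count was 0 with library totals, 4 with TMM factors from abundant entries, 42 by DESeq2 and 0 in a fit of the 6 libraries. For ipsi_24h against ipsi_12h, DESeq2 gave 70 calls, 5 higher and 65 lower, and leaving out 1 library 0 to 196, 0 to 157 higher and 0 to 39 lower, with 196 without ipsi_12h replicate 3 and 19 without ipsi_24h replicate 3. For contra_24h against sham that range was 0 to 1, the 1 lower entry without sham replicate 1. The cause was not tested for any of these.

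Many list members changed sign with library totals, let-7c-5p, miR-132-3p and miR-221-3p among them, and the entries given next are examples. The log2 fold change over sham turned positive under library totals for miR-127-3p (0.25), miR-26a-5p (0.044), miR-22-3p (0.0052), miR-27b-3p (0.14), miR-124-3p (0.24) and miR-204-5p (0.19), and under TMM factors from abundant entries for miR-127-3p (0.13), miR-27b-3p (0.034), miR-124-3p (0.11) and miR-204-5p (0.10). With the block but without sham replicate 2 it was 0.32 for miR-182-5p, 0.054 for miR-141-3p, 1.46 for miR-183-5p and 0.00029 for miR-204-5p. Without sham replicate 2, with or without ipsi_6h replicate 3, it was 0.21 for miR-182-5p, 0.21 for miR-127-3p, 0.02 for miR-124-3p and 1.29 for miR-183-5p (edgeR, adjusted p = 0.017 for the last without both), and without ipsi_24h replicate 1 it was 0.07 for miR-127-3p and 0.047 for miR-124-3p. Over all left-out libraries the lowest values, each without sham replicate 1, were -6.51, -0.45, -0.43 and -1.40 for miR-182-5p, miR-127-3p, miR-124-3p and miR-183-5p. Depth limits entries of few counts.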

Other observations

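The epithelial and sensory miRNAs high in sham replicate 2 were also high in 1 ipsilateral library at 6 h, where miR-182-5p had 20224 CPM in replicate 3, against 214 and 111 CPM in replicates 1 and 2.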
